A study of Mus musculus with 10 samples.

Results

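Genes of the cell cycle and of DNA replication were followed in mouse retina through normal maturation, oxygen-induced retinopathy (OIR) and treatment with a bromodomain inhibitor. The set was a list of 49 gene symbols covering proliferation markers, cyclins and their kinases, replication and nucleotide supply, mitosis, and cell cycle transcription factors, and each gene was read from the transcript cluster annotated to that symbol alone. Of the 49, 45 were measured, among 30063 genes in all, and all 45 passed the filter on low values. The cyclin genes Ccnb1 and Ccnd1, the helicase subunit gene Mcm7 and the transcription factor gene Foxm1 had no cluster of their own and are not analysed here.

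The 10 Affymetrix arrays came from retina of C57BL/6JJmsSlc mice and fall into 5 groups of 2. In the OIR groups pups breathed 75% oxygen for 5 days from postnatal day 7, then returned to air, and retina was taken at day 17. Of these, 1 group was injected into the vitreous with ISOX DUAL and 1 with PBS (phosphate-buffered saline) as hyperoxia ended, and 1 was not injected. Untreated retina was taken at day 17 and at day 7. ISOX DUAL is known as an inhibitor of BET and CBP bromodomains, protein modules that read acetylated histones, and its dose is not given in the sources used here. Whether each array stands for 1 animal or a pool is not stated in the labels, so a p-value here reflects array-to-array spread, part or all of which may be technical.

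A cell enters the cycle when cyclin-dependent kinases release E2F factors, which switch on genes for nucleotide synthesis and for the MCM helicase that opens replication origins. A later wave of genes, many controlled through a promoter element called CHR, builds the spindle, the kinetochores and the machinery of cell division. In the mouse retina the last progenitors leave the cycle in the early postnatal period, after which dividing cells are mostly those of vessels, glia and immune lineages. In OIR, sprouting vessel cells are known to divide.

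Values are log2 levels of the deposited table, in which a level is comparable between arrays for 1 gene but not between genes. Array medians lay between 5.55 and 5.68. The median of the negative control probes was 5.83 to 6.11 on the arrays and their 95th percentile 8.31 to 8.64. Many cell cycle genes lay low in mature retina: of the 45, 32 were below the negative control median on both arrays with ISOX DUAL, 29 with PBS, 19 in uninjected OIR, 25 in untreated day 17 retina and 6 in untreated day 7 retina. None of the 45 was above the 95th percentile on both arrays of any day 17 group, so their log2 differences from day 7 retina are not exact sizes and no fold is given. Rod marker genes averaged 11.2 to 11.3 log2 on the day 17 untreated arrays, and lower on the day 7 arrays (9.95 and 9.15).

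**Figure D1:**
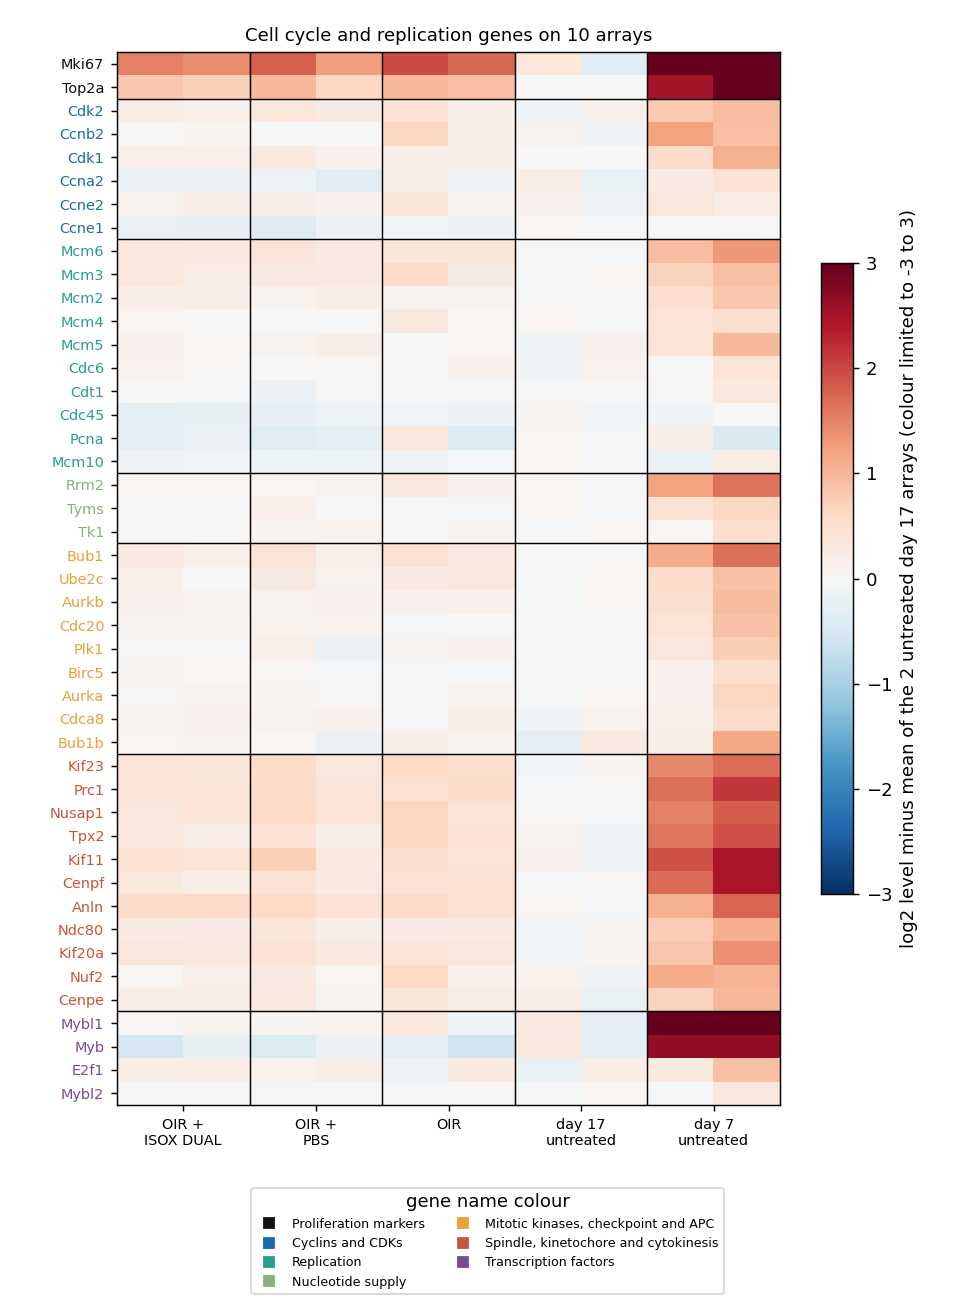
Levels of the 45 measured genes on the 10 arrays, each as log2 level minus the mean of its 2 untreated day 17 arrays, with genes ordered by role and the colour limited to -3 to 3. The 2 day 7 columns are highest for most genes, and Mki67, Top2a and most spindle genes are pale red in all 3 OIR groups.

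The question of which cell cycle transcripts are lost as the retina matures was answered by comparing untreated day 17 with untreated day 7 retina. Of the 45 genes, 28 fell and none rose in the limma fit at an adjusted p under 0.05, where 5.29% of the 23255 genes tested fell and 5.26% rose. The median difference over the 45 was -0.71 log2, against 0.01 over all genes tested, and 17 genes fell by at least 1 log2. The difference was negative in 43 genes and positive in 2 (48.0% and 52.0% of all genes tested), and both day 17 arrays lay below both day 7 arrays for 37 genes and above them for none (19.7% and 20.7%). In whole retina, fewer dividing cells and less of each transcript per cell cannot be told apart. All 45 genes passed the filter, but Bub1 passed only through its day 7 arrays and so had to differ; without it, 27 of 44 fell.

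Both proliferation markers fell. Mki67, which encodes the Ki-67 antigen present in cycling cells, was at 5.14 and 4.49 log2 on the day 17 arrays, against 8.77 and 9.50 on the day 7 arrays, and fell by 4.32 ± 0.30 (SE; adjusted p = 0.00031). Top2a, encoding the topoisomerase that untangles replicated chromosomes, was at 4.55 and 4.57 log2 on the day 17 arrays, against 7.06 and 8.11 on the day 7 arrays, and fell by 3.02 ± 0.29 (adjusted p = 0.00101). In both genes the 2 day 7 arrays lay more than 2 log2 above either day 17 array. The day 7 arrays differed from each other more than the day 17 arrays did for Top2a.

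All 11 genes of spindle, kinetochore and cytokinesis fell, with a median difference of -1.56 log2 and a range of -2.18 to -0.83. Kif23, a kinesin of the central spindle, was at 4.53 and 4.69 log2 on the day 17 arrays, against 6.06 and 6.28 on the day 7 arrays (fell by 1.56 ± 0.12, adjusted p = 0.000421). Prc1, which bundles microtubules at the cleavage plane, was at 5.00 and 5.02 log2 on the day 17 arrays, against 6.66 and 7.12 on the day 7 arrays (-1.88 ± 0.15). Nusap1, a spindle-associated protein gene, was at 4.55 and 4.47 log2 on the day 17 arrays, against 6.02 and 6.33 on the day 7 arrays (-1.66 ± 0.13). In each of these 3 genes the days were apart by more than the arrays of either day. Tpx2, an activator of Aurora kinase A on the spindle, was at 5.52 and 5.33 log2 on the day 17 arrays, against 7.03 and 7.36 on the day 7 arrays (-1.77 ± 0.15), and Kif11, the motor that pushes spindle poles apart, was at 5.44 and 5.18 log2 on the day 17 arrays, against 7.23 and 7.75 on the day 7 arrays (-2.18 ± 0.20). The outer kinetochore partners Ndc80 (4.73 and 4.89 log2 on the day 17 arrays, against 5.56 and 5.90 on the day 7 arrays; -0.92 ± 0.13) and Nuf2 (4.64 and 4.43 log2 on the day 17 arrays, against 5.64 and 5.57 on the day 7 arrays; -1.07 ± 0.16) fell too, at levels that were already below the negative control medians on day 7. The centromere protein genes Cenpf (-2.07 ± 0.21) and Cenpe (-0.83 ± 0.16), the contractile ring gene Anln (-1.41 ± 0.20) and the kinesin gene Kif20a (-1.11 ± 0.16) completed the group.

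Of 9 genes of mitotic kinases, the spindle checkpoint and the anaphase-promoting complex, 4 passed, and 3 of 8 without Bub1. Ube2c, the ubiquitin-conjugating enzyme of the anaphase-promoting complex, was at 5.80 and 5.94 log2 on the day 17 arrays, against 6.42 and 6.74 on the day 7 arrays and fell by 0.71 ± 0.13 (adjusted p = 0.0142). The Aurora kinase B gene Aurkb was at 5.30 and 5.42 log2 on the day 17 arrays, against 5.83 and 6.32 on the day 7 arrays (-0.71 ± 0.15, adjusted p = 0.0221), and Cdc20, the activator of that complex, was at 5.07 and 5.08 log2 on the day 17 arrays, against 5.48 and 5.96 on the day 7 arrays (-0.64 ± 0.14, adjusted p = 0.0293). Bub1, a checkpoint kinase, was at 3.86 and 3.86 log2 on the day 17 arrays, against 4.98 and 5.52 on the day 7 arrays (-1.39 ± 0.17), below the negative control median in every group, and it was tested only because of its day 7 arrays. The other 5 had negative differences that did not pass: Plk1 (-0.54 ± 0.15; adjusted p = 0.0621), whose groups did not overlap (6.83 and 6.85 log2 on the day 17 arrays, against 7.19 and 7.58 on the day 7 arrays), Bub1b (-0.67 ± 0.29), Aurka (-0.39 ± 0.16), Cdca8 (-0.35 ± 0.14) and Birc5 (-0.32 ± 0.12). Aurkb, Birc5 and Cdca8 encode parts of the chromosomal passenger complex, and 1 of the 3 passed.

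Of 10 replication genes 4 fell, all of them MCM subunits. Of the 5 MCM helicase subunits measured, 4 fell: Mcm6 was at 5.70 and 5.65 log2 on the day 17 arrays, against 6.59 and 6.98 on the day 7 arrays (fell by 1.11 ± 0.13, adjusted p = 0.00208). Mcm3 was at 5.31 and 5.42 log2 on the day 17 arrays, against 6.05 and 6.27 on the day 7 arrays (-0.80 ± 0.13, adjusted p = 0.00712). Mcm2 was at 6.32 and 6.41 log2 on the day 17 arrays, against 6.86 and 7.18 on the day 7 arrays (-0.66 ± 0.12, adjusted p = 0.0109). These 3 genes and Mcm4 (6.78 and 6.68 log2 on the day 17 arrays, against 7.13 and 7.22 on the day 7 arrays; adjusted p = 0.0341) had no overlap between the days. Mcm5 was at 5.75 and 6.03 log2 on the day 17 arrays, against 6.27 and 6.86 on the day 7 arrays and did not pass (-0.67 ± 0.18, adjusted p = 0.0581). The licensing and loading genes had small differences: Cdc6 -0.21 ± 0.14, Cdt1 -0.16 ± 0.12, Cdc45 0.06 ± 0.10 and Mcm10 -0.00 ± 0.13 log2. Cdc6 and Mcm10 lay below the negative control median on both arrays of every group, day 7 included, so their differences say little. Pcna, the sliding clamp of DNA polymerase, was at 7.96 and 7.85 log2 on the day 17 arrays, against 8.10 and 7.48 on the day 7 arrays, with a difference of 0.12 ± 0.25 (95% interval -0.47 to 0.71). Pcna lay above the negative control median on all 10 arrays.

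Nucleotide supply was represented by 3 genes. Rrm2, the cycle-regulated subunit of ribonucleotide reductase, was at 4.81 and 4.71 log2 on the day 17 arrays, against 5.97 and 6.39 on the day 7 arrays (fell by 1.42 ± 0.14, adjusted p = 0.00108). Tyms, thymidylate synthase, was at 6.17 and 6.06 log2 on the day 17 arrays, against 6.55 and 6.73 on the day 7 arrays (-0.53 ± 0.10, adjusted p = 0.0145). The thymidine kinase gene Tk1 did not pass (-0.28 ± 0.14, adjusted p = 0.3). Among cyclins and their kinases, Cdk2 was at 5.50 and 5.76 log2 on the day 17 arrays, against 6.41 and 6.56 on the day 7 arrays (-0.86 ± 0.13, adjusted p = 0.00512) and the mitotic kinase gene Cdk1 at 5.14 and 5.18 log2 on the day 17 arrays, against 5.72 and 6.22 on the day 7 arrays (-0.81 ± 0.15, adjusted p = 0.0134). Ccnb2, a B-type cyclin of mitosis, was at 6.01 and 5.79 log2 on the day 17 arrays, against 7.11 and 6.80 on the day 7 arrays (-1.06 ± 0.17, adjusted p = 0.00712). These 3 fell, and the other 3 did not pass. They were Ccna2, the cyclin of S and G2 phase (7.66 and 7.27 log2 on the day 17 arrays, against 7.71 and 7.90 on the day 7 arrays; -0.34 ± 0.16), and the G1/S cyclin genes Ccne2 (-0.28 ± 0.13) and Ccne1 (-0.01 ± 0.10).

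Of 4 transcription factor genes, the related Myb and Mybl1 fell. Mybl1, which encodes A-Myb, was at 6.00 and 5.47 log2 on the day 17 arrays, against 9.48 and 9.21 on the day 7 arrays (-3.61 ± 0.20, adjusted p = 0.000106). Myb, the c-Myb proto-oncogene, was at 6.58 and 5.99 log2 on the day 17 arrays, against 8.95 and 8.94 on the day 7 arrays (-2.66 ± 0.21, adjusted p = 0.000472). With Mki67 they were the 3 genes of the 45 above the 95th percentile of the negative control probes on both day 7 arrays. The third family member, Mybl2 (B-Myb), was at 5.94 and 6.04 log2 on the day 17 arrays, against 5.94 and 6.30 on the day 7 arrays (-0.14 ± 0.12). E2f1, an E2F activator of S-phase genes, was at 5.88 and 6.26 log2 on the day 17 arrays, against 6.37 and 6.95 on the day 7 arrays and did not pass (-0.59 ± 0.22, adjusted p = 0.149).

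**Figure D2:**
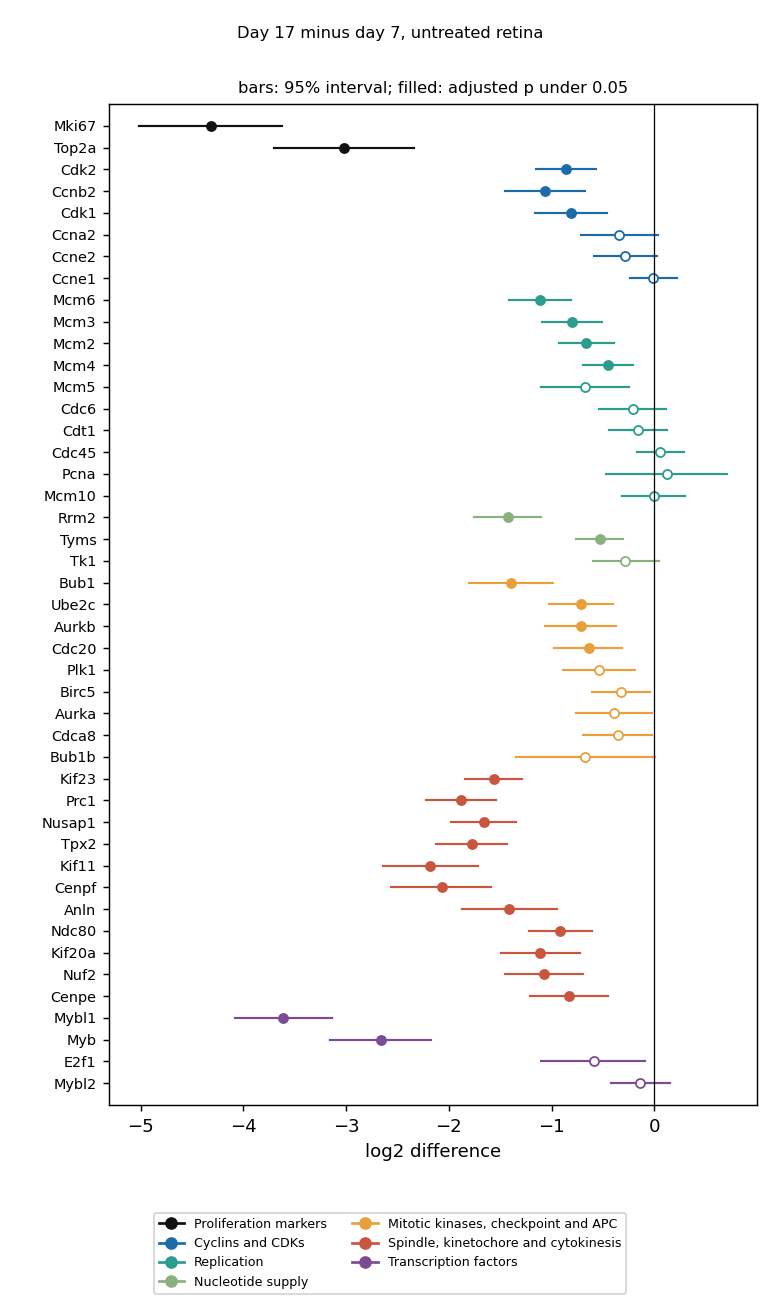
Log2 difference of untreated day 17 minus untreated day 7 retina (x axis) for the 45 genes (rows, coloured by role), with 95% intervals of the limma fit. Filled points are the 28 genes past the threshold, all to the left of 0, from Mki67 at -4.32 to Mcm4 at -0.45.

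The second day 7 array was higher than the first for 39 of the 45 genes (58.5% of all genes tested). On these day 7 arrays retinal progenitor markers averaged 6.68 and 6.99 log2 and rod markers 9.95 and 9.15, in the order of first and second array, and on the day 17 arrays progenitor markers averaged 6.20 and 6.37. Between the days 2 of 8 progenitor markers fell and 4 of 5 rod markers rose. In the same comparison 4 of 10 endothelial markers rose and 1 fell, 3 of 6 pericyte markers rose, 2 of 5 pigment epithelium markers rose (median difference 1.33 log2), and of 6 Müller glia markers 1 rose and 1 fell, while no astrocyte, microglial or lens marker passed. The part of these markers in the result was not tested. The median over the 45 genes was -0.94 log2 without the first and -0.55 without the second day 7 array. When each array was left out in turn, 20 of the 28 calls held in all 10 fits. Among the other 8, Cdk1 (adjusted p = 0.0631) and Mcm2 (0.0558) were lost without the first untreated day 17 array. Cenpe was lost without the second day 17 (0.0605) or second day 7 array (0.0891), Tyms without the same arrays (0.0575 and 0.0643), and Ube2c without the first day 17 (0.0737) or second day 7 array (0.0617). Aurkb was lost without either day 17 array or either ISOX DUAL array (0.0509 to 0.103). Cdc20 was lost without either day 17, PBS or ISOX DUAL array or the second day 7 array (0.0536 to 0.106), and Mcm4 in every such fit that left out an array of day 7, day 17, PBS or ISOX DUAL (0.0637 to 0.123). Without the first day 7 array 7 more genes passed, namely Mcm5, Aurka, Birc5, Plk1, Bub1b, Tk1 and E2f1 (adjusted p of 0.00779 to 0.0478).

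The sequences around the starts of the measured genes were also searched, from 250 bases before to 50 after each start (RefSeq, GRCm38.p6, written 5′ to 3′ along the gene). Of the 45 genes, 38 had an entry, and the first listed start was used. The letters searched, on both strands and with overlaps kept, were TTTGAA or TTCGAA for CHR, CCAAT for the box bound by NF-Y, and TTCCCGC or TTGGCGC or TTCGCGC for E2F. At least 1 CHR was present in 19 of the 38 (19.4% of 27025 promoters in the table), a CCAAT box in 65.8% (37.9%) and an E2F match in 21.1% (8.21%). Among the 23 genes that fell and had an entry, the shares were 60.9%, 73.9% and 21.7%, and among the 15 others 33.3%, 53.3% and 20.0%. The 23 include Bub1, with both CHR and CCAAT matches, which passed the filter only through its day 7 arrays and so had to differ. CHR and CCAAT together were in 44.7% of the 38, against 7.70% of all promoters.

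The gene of smallest p in each of 6 role groups, among those with an entry, is printed with its matches in capitals. Bub1 is among them although it was tested only because of its day 7 arrays. Kif23 (chr9:61946750-61947049, minus strand) holds a CHR that begins at base 3 of the transcript and a CCAAT box on the opposite strand just before the start. Bub1 (chr2:127831810-127832109, minus strand) holds a CHR and 2 CCAAT boxes, while Mcm6 (chr1:128359656-128359955, minus strand) holds 5 E2F matches, some overlapping, and 2 CCAAT boxes. Cdk2 (chr10:128705002-128705301, minus strand) holds 2 E2F matches and 1 CCAAT box, Rrm2 (chr12:24708004-24708303, plus strand) 1 CCAAT box, and Myb (chr10:21160935-21161234, minus strand) none of the letters searched. A match is a description of the sequence, not of binding.
Kif23: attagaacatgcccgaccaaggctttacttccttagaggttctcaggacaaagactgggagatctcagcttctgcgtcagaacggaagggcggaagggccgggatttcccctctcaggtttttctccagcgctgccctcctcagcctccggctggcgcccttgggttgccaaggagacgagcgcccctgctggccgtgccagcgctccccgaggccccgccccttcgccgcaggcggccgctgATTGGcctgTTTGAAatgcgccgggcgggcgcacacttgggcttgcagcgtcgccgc
Bub1: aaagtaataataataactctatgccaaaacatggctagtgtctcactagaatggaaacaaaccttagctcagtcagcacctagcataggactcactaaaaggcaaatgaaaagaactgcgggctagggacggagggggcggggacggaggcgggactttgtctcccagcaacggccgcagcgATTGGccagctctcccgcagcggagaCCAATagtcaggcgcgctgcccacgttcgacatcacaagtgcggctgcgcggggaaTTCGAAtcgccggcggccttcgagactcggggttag
Mcm6: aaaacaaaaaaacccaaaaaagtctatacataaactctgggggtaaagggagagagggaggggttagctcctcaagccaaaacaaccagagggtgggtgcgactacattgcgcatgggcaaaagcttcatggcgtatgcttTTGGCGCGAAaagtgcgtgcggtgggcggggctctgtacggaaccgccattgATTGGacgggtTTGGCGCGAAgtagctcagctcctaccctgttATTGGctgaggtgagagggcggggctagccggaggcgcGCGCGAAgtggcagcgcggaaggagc
Cdk2: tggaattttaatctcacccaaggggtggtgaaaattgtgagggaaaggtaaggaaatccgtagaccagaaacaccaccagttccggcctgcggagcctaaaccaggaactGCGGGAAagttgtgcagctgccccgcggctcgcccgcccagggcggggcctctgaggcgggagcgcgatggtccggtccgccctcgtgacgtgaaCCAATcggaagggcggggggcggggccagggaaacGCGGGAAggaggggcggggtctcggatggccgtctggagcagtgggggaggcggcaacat
Rrm2: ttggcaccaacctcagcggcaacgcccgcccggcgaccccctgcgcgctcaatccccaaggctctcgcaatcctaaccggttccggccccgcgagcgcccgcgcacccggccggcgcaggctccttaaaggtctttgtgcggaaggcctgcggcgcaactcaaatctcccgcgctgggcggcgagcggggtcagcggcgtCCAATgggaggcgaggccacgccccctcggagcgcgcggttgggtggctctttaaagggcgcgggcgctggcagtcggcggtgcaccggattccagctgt
Myb: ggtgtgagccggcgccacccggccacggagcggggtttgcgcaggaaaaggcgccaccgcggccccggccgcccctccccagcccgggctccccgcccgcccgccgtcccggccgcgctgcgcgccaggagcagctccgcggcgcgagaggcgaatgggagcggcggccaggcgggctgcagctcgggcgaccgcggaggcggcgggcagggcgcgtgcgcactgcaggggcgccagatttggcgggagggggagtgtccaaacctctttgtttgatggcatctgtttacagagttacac

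Other genes of the cell cycle, 80 listed and 76 tested, gave 24 that fell and 2 that rose in the day 17 against day 7 comparison. Their median was -0.23 log2, against 0.01 over all genes tested, of which 5.29% fell and 5.26% rose. Of the 24, Knl1, Ncapg, Sgo1, Ttk and Cdc25c passed the filter only through their day 7 arrays and so had to differ; among the other 71 genes 19 fell. The 10 of smallest p were E2f8 (-1.29 ± 0.11), a repressive E2F, the condensin genes Ncaph (-1.34 ± 0.12), Smc2 (-1.03 ± 0.10) and Ncapg (-1.75 ± 0.19), Dbf4 (-1.15 ± 0.10), the kinetochore scaffold gene Knl1 (-2.37 ± 0.23), Tfdp2 (-0.93 ± 0.10), Sgo1 (-1.08 ± 0.11), Cdk6 (-1.32 ± 0.16) and, in the other direction, Spc25. Spc25, whose product binds Ndc80 and Nuf2 in the kinetochore, was at 8.52 and 8.28 log2 on the day 17 arrays, against 6.83 and 6.82 on the day 7 arrays (+1.58 ± 0.14, adjusted p = 0.000664). The other riser, Rpa1, a single-stranded DNA binding protein gene named here after its values were seen, differed by 0.95 ± 0.12 (adjusted p = 0.00302). The partners of Spc25 among the 45 genes, Ndc80 and Nuf2, fell in the same comparison. None of 7 CDK inhibitor genes passed in either direction, with differences of -0.46 to -0.02 log2.

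Uninjected OIR retina was next compared with untreated retina of the same day, which asks whether cell cycle transcripts are raised at the time of vessel sprouting. None of the 45 genes passed in the limma fit, where 0.456% of all genes rose and 0.0387% fell. At an unadjusted p under 0.05 there were 11 genes, all with higher values in OIR, and 6.10% of all genes tested reached that p in either direction. The median difference over the 45 was 0.16 log2 (35 positive and 10 negative), against -0.04 over all genes, of which 40.0% were positive and 60.0% negative. On both OIR arrays 24 genes lay above both untreated arrays and 3 lay below them (Ccne1, Cdt1 and Cdc45), while over all genes tested these shares were 9.44% above and 19.0% below.

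Mki67 had the largest difference of the 45. It was at 6.32 and 6.21 log2 with ISOX DUAL, 6.61 and 6.07 with PBS, 6.77 and 6.54 in uninjected OIR, 5.14 and 4.49 in untreated day 17 retina and 8.77 and 9.50 in untreated day 7 retina. All 6 OIR arrays lay above both untreated day 17 arrays and below both day 7 arrays. The difference of uninjected OIR from untreated retina was 1.84 ± 0.30 log2 (95% interval 1.14 to 2.54; adjusted p = 0.057), just outside the threshold. Mki67 was below the negative control median in untreated retina, so this is not an exact size. Its adjusted p was 0.0408 with an intensity trend in the fit and between 0.0302 and 0.391 over the alternatives run, and it passed in 2 of them.

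Top2a was at 5.36 and 5.27 log2 with ISOX DUAL, 5.54 and 5.17 with PBS, 5.54 and 5.46 in uninjected OIR, 4.55 and 4.57 in untreated day 17 retina and 7.06 and 8.11 in untreated day 7 retina. The order was the same as for Mki67, with the OIR arrays between the untreated groups, and the OIR difference was 0.94 ± 0.29 log2 (adjusted p = 0.497). All 11 spindle, kinetochore and cytokinesis genes had positive differences of 0.26 to 0.55 log2 (median 0.44), 5 of them at an unadjusted p under 0.05. Kif23 was at 5.00 and 4.98 log2 with ISOX DUAL, 5.17 and 4.96 with PBS, 5.21 and 5.10 in uninjected OIR, 4.53 and 4.69 in untreated day 17 retina and 6.06 and 6.28 in untreated day 7 retina, a difference of 0.55 ± 0.12 (adjusted p = 0.168). Tpx2 was at 6.07 and 5.87 log2 in OIR, against 5.52 and 5.33 in untreated retina (0.55 ± 0.15), Nusap1 at 5.15 and 4.93 log2 in OIR, against 4.55 and 4.47 in untreated retina (0.53 ± 0.13), and Prc1 at 5.47 and 5.55 log2 in OIR, against 5.00 and 5.02 in untreated retina (0.50 ± 0.15). In each of these 4 genes the groups did not overlap, and none passed after adjustment. Anln (0.51 ± 0.20) was the fifth below that unadjusted p, and the rest were Cenpf (0.44 ± 0.21), Kif11 (0.44 ± 0.20), Kif20a (0.36 ± 0.16), Nuf2 (0.36 ± 0.16), Cenpe (0.29 ± 0.16) and Ndc80 (0.26 ± 0.13). Top2a and all of these spindle genes except Tpx2 and Cenpe lay below the negative control median in both groups compared. Tpx2 lay below it in untreated retina only. The differences of Tpx2 and of those genes are therefore not exact sizes.

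Replication genes had a median difference of 0.06 log2. Mcm3 was at 5.93 and 5.64 log2 in OIR, against 5.31 and 5.42 in untreated retina (0.42 ± 0.13, adjusted p = 0.445) and Mcm6 at 6.05 and 6.05 log2 in OIR, against 5.70 and 5.65 in untreated retina (0.38 ± 0.13, adjusted p = 0.601), both without overlap. Mcm2 was at 6.46 and 6.46 log2 in OIR, against 6.32 and 6.41 in untreated retina and Mcm5 at 5.90 and 5.94 log2 in OIR, against 5.75 and 6.03 in untreated retina, with differences of 0.10 ± 0.12 and 0.03 ± 0.18 log2. Pcna (8.20 and 7.49 log2 in OIR, against 7.96 and 7.85 in untreated retina) overlapped, and Mcm4, Cdc6, Cdt1, Cdc45 and Mcm10 lay between -0.13 and 0.16 log2. Cdk2 was at 6.06 and 5.84 log2 in OIR, against 5.50 and 5.76 in untreated retina (0.32 ± 0.13) and Ccnb2 at 6.51 and 6.08 log2 in OIR, against 6.01 and 5.79 in untreated retina (0.39 ± 0.17), both under an unadjusted p of 0.05. Cdk1 (0.20 ± 0.15), Ccne2 (0.21 ± 0.13), Ccna2 (0.04 ± 0.16) and Ccne1 (-0.12 ± 0.10) did not reach it. Mcm3, Mcm6, Cdk2, Cdk1 and Ccne2 lay below the negative control median on both untreated arrays, so their differences are not exact sizes.

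Mybl1, Myb and Rrm2, with large falls between the days, had much smaller differences in OIR, as did Kif11 and Cenpf above. Mybl1 was at 5.78 and 5.85 log2 with ISOX DUAL, 5.82 and 5.83 with PBS, 6.04 and 5.60 in uninjected OIR, 6.00 and 5.47 in untreated day 17 retina and 9.48 and 9.21 in untreated day 7 retina. The day 7 arrays stood alone and the 8 day 17 arrays lay within 0.57 log2 of each other, with an OIR difference of 0.08 ± 0.20 log2 (95% interval -0.39 to 0.55). Myb was at 5.79 and 6.06 log2 with ISOX DUAL, 5.88 and 6.12 with PBS, 6.04 and 5.69 in uninjected OIR, 6.58 and 5.99 in untreated day 17 retina and 8.95 and 8.94 in untreated day 7 retina, and its OIR difference was -0.42 ± 0.21 (adjusted p = 0.944), the lowest of the 45. Rrm2 was at 4.83 and 4.82 log2 with ISOX DUAL, 4.82 and 4.86 with PBS, 5.06 and 4.90 in uninjected OIR, 4.81 and 4.71 in untreated day 17 retina and 5.97 and 6.39 in untreated day 7 retina, with a difference of 0.22 ± 0.14. Tyms (6.09 and 6.05 log2 in OIR, against 6.17 and 6.06 in untreated retina; -0.04 ± 0.10), Tk1 (0.03 ± 0.14), E2f1 (5.93 and 6.33 log2 in OIR, against 5.88 and 6.26 in untreated retina; 0.06 ± 0.22) and Mybl2 (-0.00 ± 0.12) overlapped between the groups, as did Myb and Mybl1. The 9 mitotic kinase, checkpoint and anaphase-promoting complex genes had differences of -0.03 to 0.37 log2, of which Bub1 (0.37 ± 0.17) and Ube2c (0.29 ± 0.13) were the highest.

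**Figure D3:**
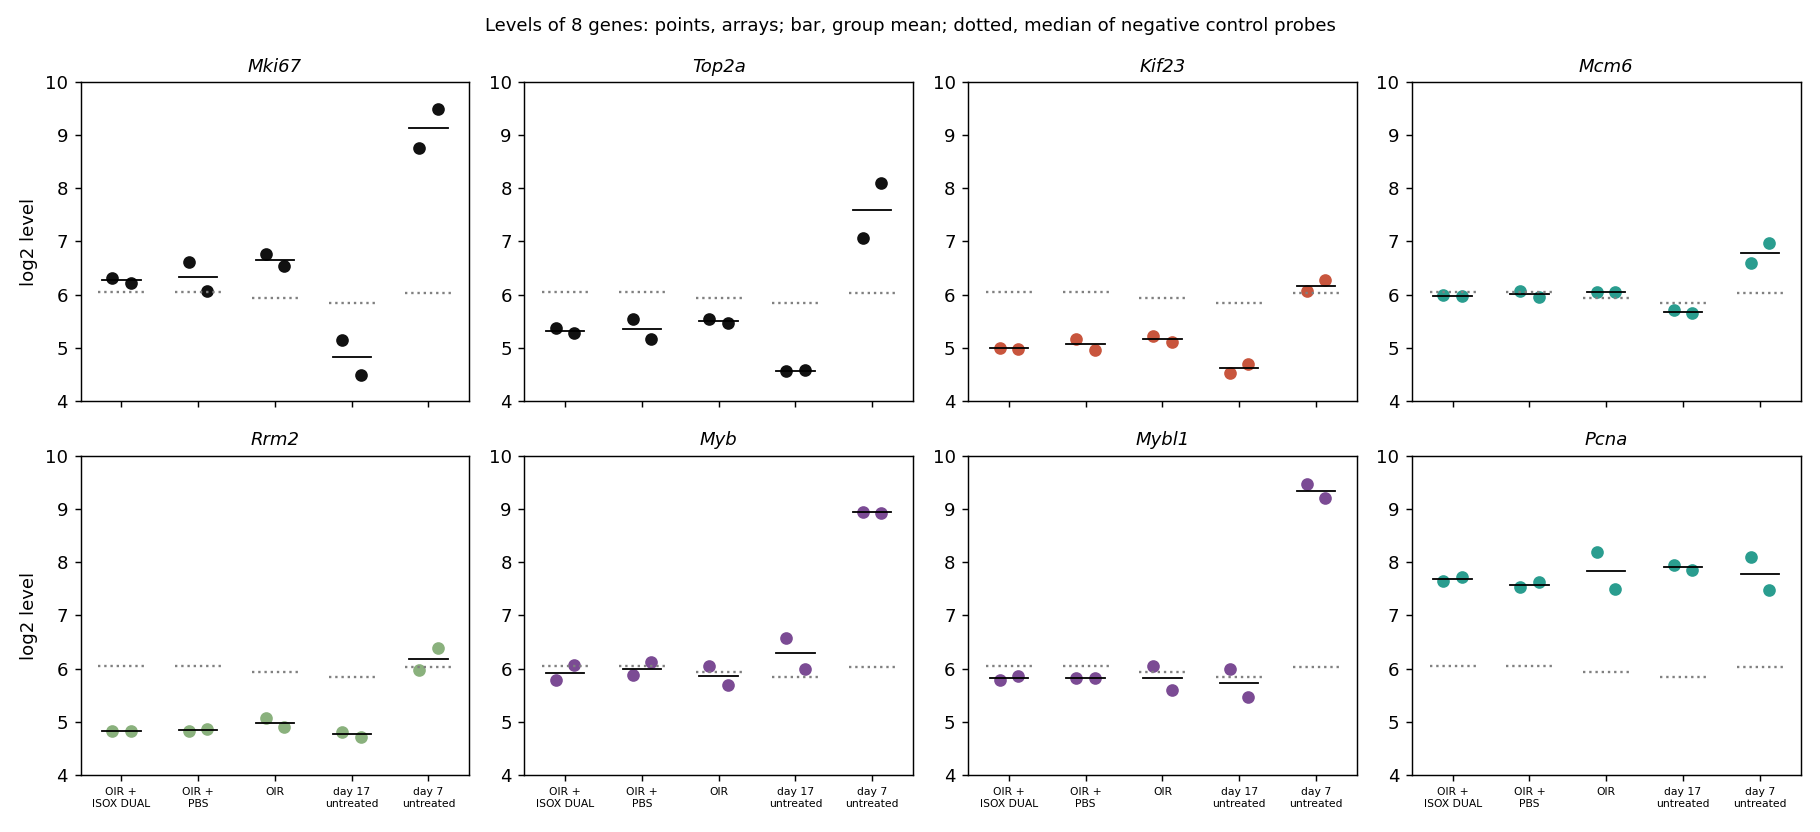
Log2 level of 8 genes (panels) on the 10 arrays (points) by group, with group means (bars) and the mean of the group's negative control medians (dotted). Mki67, Top2a, Kif23, Mcm6 and, by a narrow margin, Rrm2 have all OIR arrays above both untreated day 17 arrays. Mybl1, Myb and Pcna overlap between OIR and untreated day 17 retina.

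Setting all 6 OIR arrays beside the 2 untreated day 17 arrays, 19 of the 45 genes were higher on every OIR array (4.85% of all genes tested) and 2, Ccne1 and Cdc45, were lower on every one (9.63%). The 19 were Mki67, Top2a, Cdk1, Cdk2, Mcm2, Mcm3, Mcm6, Rrm2, Bub1, Aurkb and all spindle genes except Cenpe and Nuf2. Among them Top2a, Cdk1, Rrm2, Bub1, Aurkb and the spindle genes other than Tpx2 lay below the negative control median in every day 17 group. With the mean of the 3 OIR groups in place of the uninjected group, a contrast added after the data were seen, Mki67 differed by 1.60 ± 0.25 log2 (adjusted p = 0.0685), Top2a by 0.83 ± 0.24 and Kif23 by 0.46 ± 0.10. None of the 45 passed, where 0.0860% of all genes did. At an unadjusted p under 0.05 there were 13 higher and 2 lower genes of the 45 (the 2 being Ccne1 and Cdc45), against 10.4% of all genes in either direction.

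**Figure D4:**
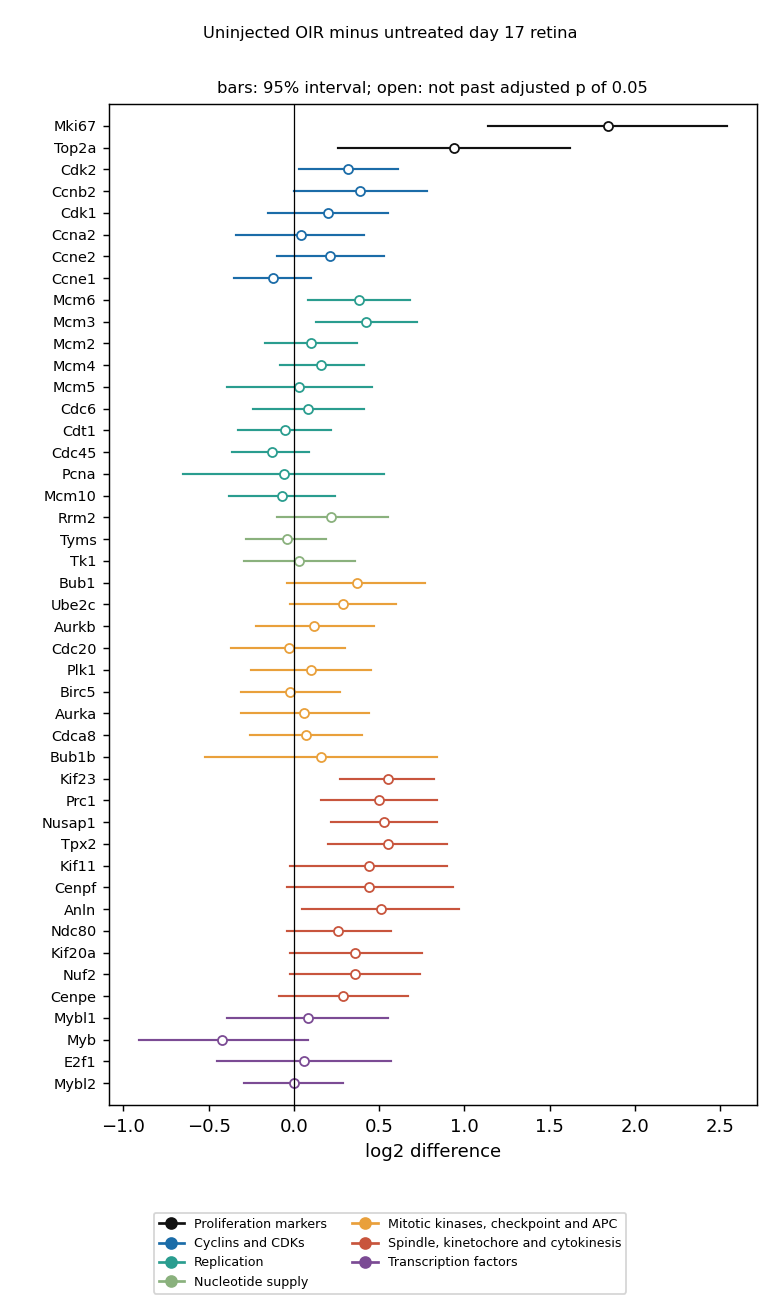
Log2 difference of uninjected OIR minus untreated day 17 retina (x axis) for the 45 genes (rows, coloured by role), with 95% intervals. Every point is open, since none passed the threshold; Mki67 lies farthest right at 1.84 and all 11 spindle genes lie to the right of 0.

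Markers of other cell types were read on the same arrays. Pericyte markers averaged 7.84 and 7.62 log2 in OIR, against 7.08 and 7.02 in untreated day 17 retina (6 genes). Acta2 was at 9.05 and 7.75, against 6.85 and 6.43, while Cspg4 and Kcnj8 overlapped and the other pericyte markers were higher. Endothelial markers averaged 7.29 and 7.12, against 6.95 and 6.82 (10 genes). Of these, Tek was lower, at 5.99 and 5.84 against 6.45 and 6.17. Kdr, Cldn5 and Emcn overlapped, and the other endothelial markers were higher. Microglial markers averaged 6.42 and 6.17, against 6.13 and 6.18 (7 genes), and retinal progenitor markers 6.28 and 6.33, against 6.20 and 6.37 (8 genes). None of the markers of these 4 cell types passed the threshold. Astrocyte markers averaged 7.17 and 7.25, against 6.03 and 6.03, and 1 of 2, Gfap, rose. The higher average came from Gfap, at 8.49 and 8.65 against 6.15 and 6.20. The other marker, Pax2, was at 5.86 and 5.86 against 5.92 and 5.87. Müller glia markers averaged 9.00 and 8.76, against 8.78 and 9.12, and pigment epithelium markers 6.93 and 6.10, against 7.28 and 6.86, with none past the threshold. The part of these markers in the differences above was not tested. Of the other 76 cell cycle genes, 2 passed. Ccnd2, a D-type cyclin, was at 7.03 and 7.10 log2 in OIR, against 6.34 and 6.10 in untreated retina and rose (0.84 ± 0.12, adjusted p = 0.033). Spc25 was at 6.87 and 6.50 log2 in OIR, against 8.52 and 8.28 in untreated retina and fell by 1.71 ± 0.14 (adjusted p = 0.00572), whereas Ndc80 (5.05 and 5.10 log2 in OIR, against 4.73 and 4.89 in untreated retina) and Nuf2 (5.13 and 4.67 log2 in OIR, against 4.64 and 4.43 in untreated retina) had positive differences that did not pass. Cdkn1a, the p21 inhibitor of cyclin-dependent kinases, was at 8.94 and 8.08 log2 in uninjected OIR, against 7.45 and 7.32 in untreated retina (1.13 ± 0.30, adjusted p = 0.339). This difference did not pass, and the injected OIR arrays were lower, at 7.46 and 7.54 with PBS and 7.53 and 7.23 with ISOX DUAL. The E2F family gene E2f6 had a smaller p than Cdkn1a and did not pass either. It was at 7.80 and 7.62 log2 in uninjected OIR, against 7.01 and 6.74 in untreated retina (0.84 ± 0.16, adjusted p = 0.112). Its injected OIR arrays were also lower, at 7.12 and 6.93 with PBS and 7.38 and 7.38 with ISOX DUAL.

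ISOX DUAL was compared with PBS, the injected control, to ask whether the inhibitor altered these transcripts. No gene of the 45 passed, nor did any of the 23255 genes tested (0.00%), and at an unadjusted p under 0.05 there were 0 of the 45, against 1.02% of all genes. Differences ran from -0.12 to 0.13 log2 with a median of -0.01, where the median over all genes was 0.01; 16 were positive and 29 negative (57.0% and 43.0% of all genes). The median half-width of the 95% intervals was 0.34 log2, and the widest bounds were -0.77 (Mki67) and 0.81 (Bub1b). True differences within these intervals are compatible with the data. The intervals are per gene and unadjusted, so they are not limits of detection, and larger differences could also fail to pass. In OIR against untreated retina, Top2a at 0.94 log2 (95% interval 0.26 to 1.62) did not pass after adjustment. The arrays of the 2 groups did not overlap for 4 genes higher with ISOX DUAL (Mcm10, Pcna, Birc5 and E2f1; 16.6% of all genes) and 4 lower (Cdk2, Tyms, Tk1 and Cdc20; 11.5%).

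Mki67 was at 6.32 and 6.21 log2 with ISOX DUAL, against 6.61 and 6.07 with PBS, a difference of -0.07 ± 0.30 (95% interval -0.77 to 0.63). Top2a differed by -0.04 ± 0.29 (-0.72 to 0.64) and Mcm2 by 0.04 ± 0.12 (-0.23 to 0.31). The ISOX DUAL arrays lay within the span of the PBS arrays for Mki67 and Top2a. The 4 genes of smallest p were Tyms, at 6.08 and 6.08 log2 with ISOX DUAL, against 6.26 and 6.13 with PBS (-0.11 ± 0.10), Nusap1 (4.84 and 4.93, against 5.09 and 4.92; -0.12 ± 0.13), Ube2c (6.03 and 5.85, against 6.13 and 5.98; -0.12 ± 0.13) and Ccne1 (5.91 and 5.88, against 5.72 and 5.92; 0.08 ± 0.10). The adjusted p of each was 1. Lens markers averaged 6.95 and 9.08 log2 on the ISOX DUAL arrays, against 6.44 and 6.79 on the PBS arrays, and they differed between the ISOX DUAL arrays by more than in any other group; their part in these differences was not tested. Of the other 76 cell cycle genes none passed.

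Both injected groups were also set against uninjected OIR, and the 2 comparisons share the uninjected arrays. None of the 45 genes passed with ISOX DUAL, where 0.00430% of all genes fell and 0.00% rose, or with PBS, where no gene did. At an unadjusted p under 0.05 there were 0 of 45 with ISOX DUAL and 1 with PBS, and 4.29% of all genes in each comparison. The median difference was -0.07 log2 with ISOX DUAL (0.02 over all genes) and -0.05 with PBS (0.01 over all genes). Differences were positive in 12 genes and negative in 33 with ISOX DUAL (57.4% and 42.6% of all genes), and positive in 15 and negative in 30 with PBS (52.5% and 47.5%). With ISOX DUAL 18 genes lay below both uninjected arrays (15.4% of all genes) and 4 above (25.7%), namely Mcm2, Mcm5, Cdc20 and Birc5. With PBS 10 lay below (15.3%) and 4 above (20.9%), namely Mcm2, Mcm5, Tyms and Cdc20.

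Ccnb2 had the smallest p in both comparisons. It was at 5.89 and 5.99 log2 with ISOX DUAL, 5.90 and 5.88 with PBS and 6.51 and 6.08 in uninjected OIR, and differed from uninjected OIR by -0.36 ± 0.17 with ISOX DUAL (adjusted p = 0.991) and -0.40 ± 0.17 with PBS (adjusted p = 0.966). All 4 injected arrays lay below both uninjected arrays, and the untreated day 17 arrays were at 6.01 and 5.79. Tpx2 was at 5.71 and 5.63 log2 with ISOX DUAL, 5.86 and 5.60 with PBS and 6.07 and 5.87 in uninjected OIR (-0.30 ± 0.15 and -0.24 ± 0.15). Ccna2 was at 7.29 and 7.30 log2 with ISOX DUAL, 7.31 and 7.12 with PBS and 7.65 and 7.36 in uninjected OIR (-0.21 ± 0.16 and -0.29 ± 0.16). Tpx2 and Ccna2 were lower on all 4 injected arrays than on both uninjected ones. Nuf2 (4.56 and 4.69 log2 with ISOX DUAL, 4.80 and 4.56 with PBS and 5.13 and 4.67 in uninjected OIR; -0.28 ± 0.16 with ISOX DUAL) and Ube2c (6.03 and 5.85 log2 with ISOX DUAL, 6.13 and 5.98 with PBS and 6.11 and 6.22 in uninjected OIR; -0.22 ± 0.13 with ISOX DUAL) were next in the first comparison, and Ccne1 (5.91 and 5.88 log2 with ISOX DUAL, 5.72 and 5.92 with PBS and 6.03 and 5.94 in uninjected OIR; -0.17 ± 0.10 with PBS) and Mcm4 (-0.16 ± 0.11 with PBS) in the second. Ccnb2, Tpx2, Nuf2 and Ccne1 lay below the negative control median on both arrays of each injected group, so their differences are not exact sizes. Mki67 differed by -0.39 ± 0.30 with ISOX DUAL and -0.32 ± 0.30 with PBS. None of the other 76 cell cycle genes passed in either comparison.

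**Figure D5:**
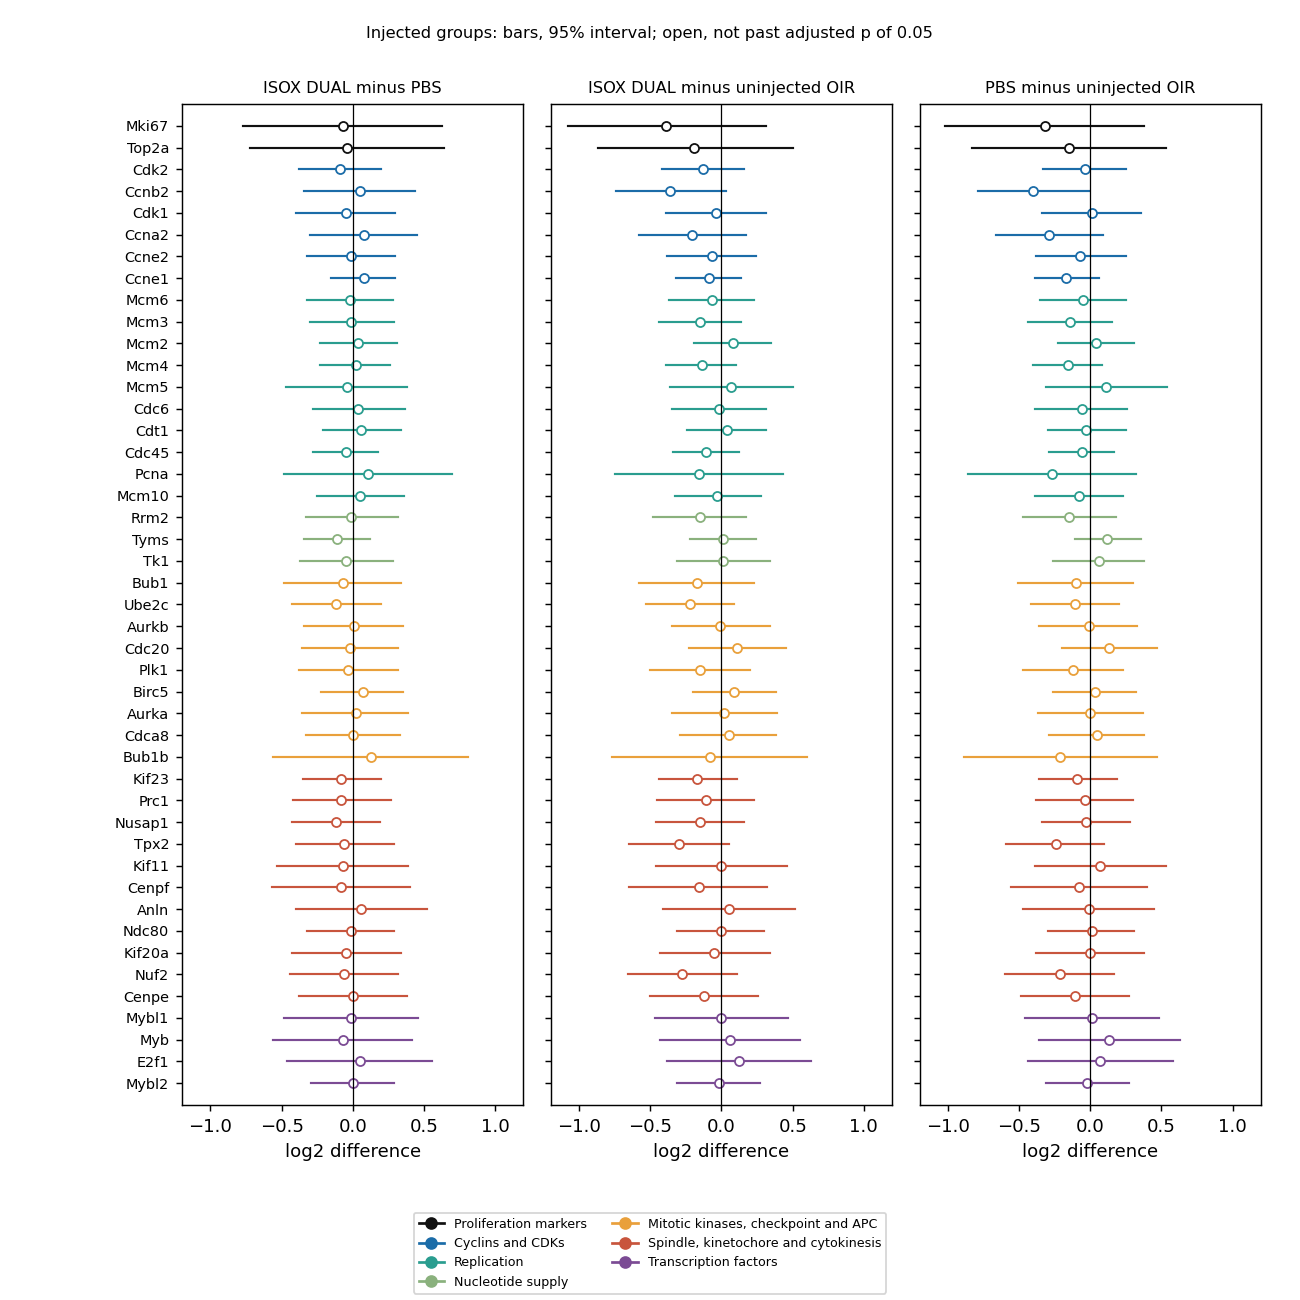
Log2 differences (x axes) of ISOX DUAL minus PBS, ISOX DUAL minus uninjected OIR and PBS minus uninjected OIR for the 45 genes (rows, coloured by role), with 95% intervals. No point is filled, since none passed the threshold, and in the first panel all points lie between -0.12 and 0.13.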

How the data were processed

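Total RNA of whole retina was extracted with Trizol and labelled with the WT Terminal Labeling Kit, per the labels' protocols. The deposited values are log2 levels of transcript clusters, a scale inferred from their range; the authors' background correction, normalization and build: not given in the sources used here. Values were not normalized again. Of 72688 rows, 6732 were controls, and 30604 of 65956 clusters had 1 gene symbol (2146 several, 33206 none), updated through RefSeq (GRCm38.p6). For each gene the single-symbol cluster with the highest mean was taken (30063 genes), and it was tested if at least 2 arrays exceeded that array's 30th percentile (23255 genes). The model was limma 3.58.1 (lmFit and eBayes, R 4.3.3) on all 10 arrays, with 5 residual and 2.76 prior degrees of freedom, and Benjamini-Hochberg adjustment over all genes tested at a threshold of 0.05. Adjusted p-values are from this fit, and ± gives its SE. Intervals are 95% intervals. Precision is limited by the number of arrays, with a median SE of 0.134 log2 for day 17 against day 7. The fit was also run on simulated data with independent noise on each array. Deviations shared between arrays were not simulated.

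The members, role groups, other gene lists and tests were chosen with earlier results of these data known, so no list was tested as a list. Genes given in full were a fixed set, those of smallest p per role group between the days, and the 4 of smallest p in each other comparison. Other cell cycle genes were named if past the threshold, up to 10 per comparison. Cdkn1a, E2f6, Ndc80 and Nuf2 in OIR, and the rod, vessel, glial and lens marker averages with some single markers, were given beside them. Cdkn1a, E2f6 and the single markers were chosen after their values were seen. Alternatives were an intensity trend, array weights, quantile normalization, other filters, averaged clusters, fits to 4 arrays, a replicate block, and each array left out.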

Additional observations from a re-analysis of the deposited data

How the results depend on the processing

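The count of 28 lower genes at day 17 was 22 to 34 when each array was left out, 12 with only the 4 arrays of the comparison in the fit, 23 with array weights, 25 of 40 genes tested with a filter at the array median, and 28 with quantile normalization, with no filter, with averaged clusters and with an intensity trend. No gene rose in any of these. The median of -0.71 log2 ranged from -0.94 to -0.55 with 1 array left out. The count of 0 in OIR against untreated retina was 1, Mki67, with an intensity trend, and 0 with each array left out. The counts of 0 in the 3 comparisons of injected groups stayed at 0 in every alternative run.

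The labels do not say whether the replicate numbers of the titles pair the arrays. Across genes, deviations of same-numbered arrays correlated at 0.583 to 0.809 among the uninjected groups and 0.399 between the injected groups. For pairs of 1 uninjected group with 1 injected group the correlations were -0.406 to -0.0567. Whether arrays share a batch is not stated, and the main fit treats all arrays as independent. With a replicate block the count at day 17 was 30, with Mcm5 (adjusted p = 0.0398) and E2f1 (adjusted p = 0.049) also past the threshold. With the numbers of both injected groups crossed, a setting chosen after the data were seen, the counts were 31 at day 17 and 1 in OIR.

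The number of arrays and the low signal of most of these genes in mature retina limit what small differences can show.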
